A study of Mus musculus with 8 samples.

Results

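The genes described are tenascin C, other adhesive proteins of the extracellular matrix and the integrins that bind them, in RAW264, a mouse macrophage-like cell line. The members were Tnc, Fn1, Spp1 and Thbs1 on the matrix side and Itgav, Itga4, Itga5, Itgb1, Itgb3 and Itgb5 on the integrin side. They were chosen by gene symbol. Of the 10 members, 9 had a probe set, each a single one, among the 22206 probe sets tested, and Spp1 was not analysed here. Tnc was put forward because its signal in knockout cells with IL-4 was known to be low, so this value is given as a description without a test. The other members were chosen as its relatives and receptors.

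RNA was measured on 8 Clariom S mouse arrays in 4 groups of 2. The groups were Gpr137b-wildtype (WT, Gpr137b +/+) and Gpr137b-knockout (KO, Gpr137b -/-) cells, each without or with IL-4 for 48 h. Gpr137b encodes an orphan G-protein-coupled receptor, and IL-4 is the cytokine used to induce M2 polarization. WT1, WT2, KO1 and KO2 are 4 independent clones established with CRISPR/Cas9 editing, and each gave 1 array without and 1 array with IL-4. Each genotype is thus 2 clones, and a difference between the genotypes and one between clones cannot be told apart. The cells were grown in serum, and serum-deprived medium was used for IL-4 treatment. The sources used here do not state whether the untreated cells had the same change of medium, so a difference with IL-4 may include one of medium. In bulk RNA, fewer cells of a type and less RNA per cell cannot be told apart.

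Signals are the log2 of the deposited intensities, and a difference of 1 is a 2-fold difference. A gene was called above background on an array where its signal exceeded the 95th percentile of 23 antigenomic control probe sets, which lay between 6.64 and 6.78. Between 42.8% and 43.8% of probe sets were above background on the 8 arrays. The macrophage identity was checked with 15 measured marker genes, of which 14 were above background on at least 1 array. Their mean signal lay between 13.43 and 13.82 in untreated WT, 13.87 and 13.89 in untreated KO, 13.08 and 13.34 in IL-4-treated WT, and 13.53 and 13.59 in IL-4-treated KO cells, so that it was higher in the KO clones in both treatments. The median KO minus WT difference of the 15 markers was only 0.06 without and 0.10 with IL-4. Fcgr1 (1.44 and 1.70) and Cx3cr1 (1.46 and 2.42) were higher in KO cells, while Lyz2 (0.006 and 0.004) hardly differed. None of the 15 passed in these comparisons. The part of the markers in the differences between genotypes below was not tested. The lists of fibroblast and of epithelial and endothelial markers each had 1 gene above background on any array, Acta2 and Vwf, and that of T, B and mast cells had none of 8. The mean signal of the 10 fibroblast markers lay between 4.61 and 4.96 in WT without IL-4, 4.84 and 4.92 in WT with IL-4, 4.98 and 5.08 in KO without IL-4, and 5.02 and 5.06 in KO with IL-4. Gpr137b, the targeted gene, read 11.50 (WT1), 11.67 (WT2), 10.24 (KO1) and 11.12 (KO2) without IL-4, and 10.32 (WT1), 11.93 (WT2), 10.00 (KO1) and 10.82 (KO2) with IL-4. The genotypes overlapped with IL-4, where KO2 was brighter than WT1, and the KO minus WT differences of −0.90 without (limma adjusted p = 0.993) and −0.72 with IL-4 (adjusted p = 1) did not pass. Whether its probes lie in the edited part was not tested, so this signal may not check the genotype. The WT clones lay farther apart than the KO clones, with 2139 probe sets at least 2-fold apart without IL-4 and 1338 with it, compared with 359 and 326.

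Tenascin C is a large matrix glycoprotein that is scarce in most adult tissues and made during development, wounding and inflammation. Fibronectin (Fn1) and thrombospondin 1 (Thbs1) are adhesive glycoproteins, and osteopontin (Spp1) is a secreted phosphoprotein of activated macrophages and bone. Integrins are receptors of 1 alpha and 1 beta chain that couple such ligands to the actin cytoskeleton. The alpha-v chain pairs with the beta chains of Itgb3 or Itgb5, and the alpha-4 and alpha-5 chains pair with that of Itgb1. The tenascin C protein is also known to activate Toll-like receptor 4 in macrophages.

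Tnc was the member with the widest range of signal, and every KO array lay below every WT array. Without IL-4 it read 9.46 (WT1), 10.56 (WT2), 6.55 (KO1) and 6.95 (KO2). The IL-4 arrays gave 12.78 (WT1), 11.64 (WT2), 7.52 (KO1) and 7.11 (KO2). All WT arrays were thus well above background, while the KO arrays lay near it. KO1 without IL-4 was below its background of 6.78, and the other 3 KO arrays were above theirs by less than 1.

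**Figure D1:**
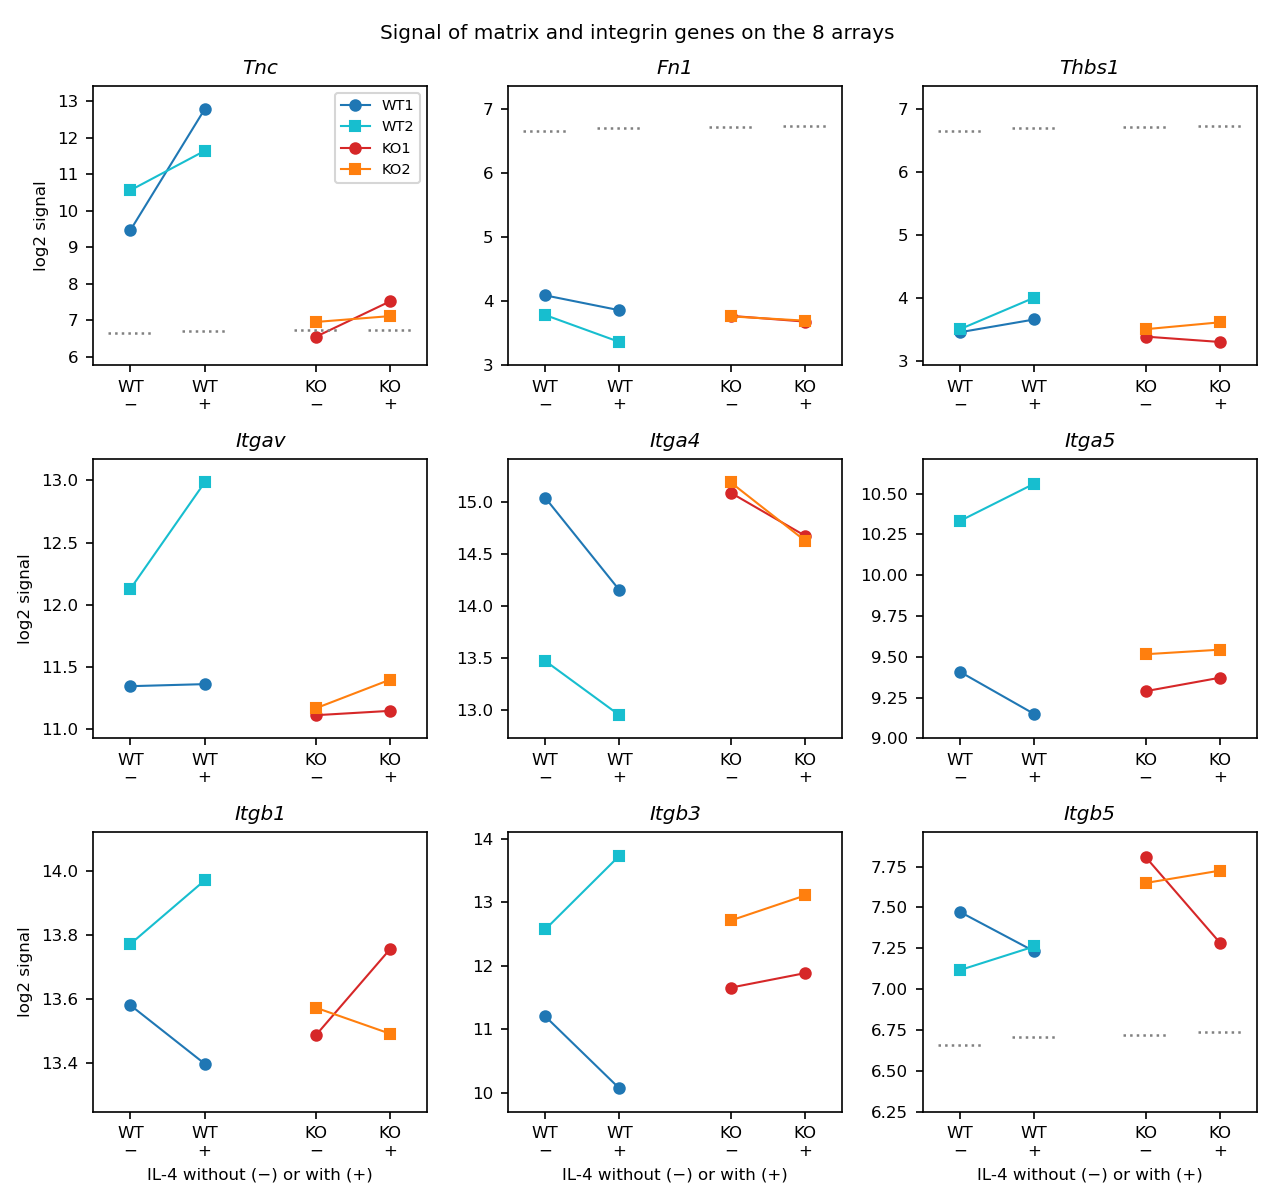
Log2 signal of the 9 measured members (y axis, 1 panel a gene, each with its own scale) in WT and KO cells without (−) and with (+) IL-4 (x axis). Points are arrays, lines join the 2 arrays of a clone, and dotted lines give the mean background of a group where it falls in the panel. Tnc read 9.46 to 12.78 in WT and 6.55 to 7.52 in KO cells.

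With IL-4 the mean of Tnc was 12.21 ± 0.81 in WT and 7.31 ± 0.29 in KO cells (SD, n = 2 clones each). That is a 29.8-fold lower signal in KO cells, the lowest KO minus WT difference of all 22206 probe sets (−4.90). This is the value for which the gene was chosen. For the 4 possible KO and WT clone pairs the difference lay between −5.67 and −4.12. Without IL-4 the means were 10.01 ± 0.78 in WT and 6.75 ± 0.29 in KO cells (SD, n = 2 clones each). KO2 was 5.71-fold lower than WT1 and 12.2-fold lower than WT2. KO1, taken at its background, was at least 6.41-fold lower than WT1 and at least 13.7-fold lower than WT2. With 1 of the 2 KO arrays below background, the difference of the means was −3.26, or −3.15 with that array at its background, on other arrays of the same clones than the value above. It did not pass the threshold of 0.05 (95% interval −4.29 to −2.24, limma adjusted p = 0.133 over all probe sets). Its spread is shared over the 4 groups and so also draws on the IL-4 arrays. The difference comes from the clones for which Tnc was chosen and is no independent test. It passed when WT1 was left out (−3.81, adjusted p = 0.00792) or WT2 (−2.72, adjusted p = 0.0208), where the spread rests on the KO clones alone, and the adjusted p was 1 without KO1 or KO2.

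**Figure D2:**
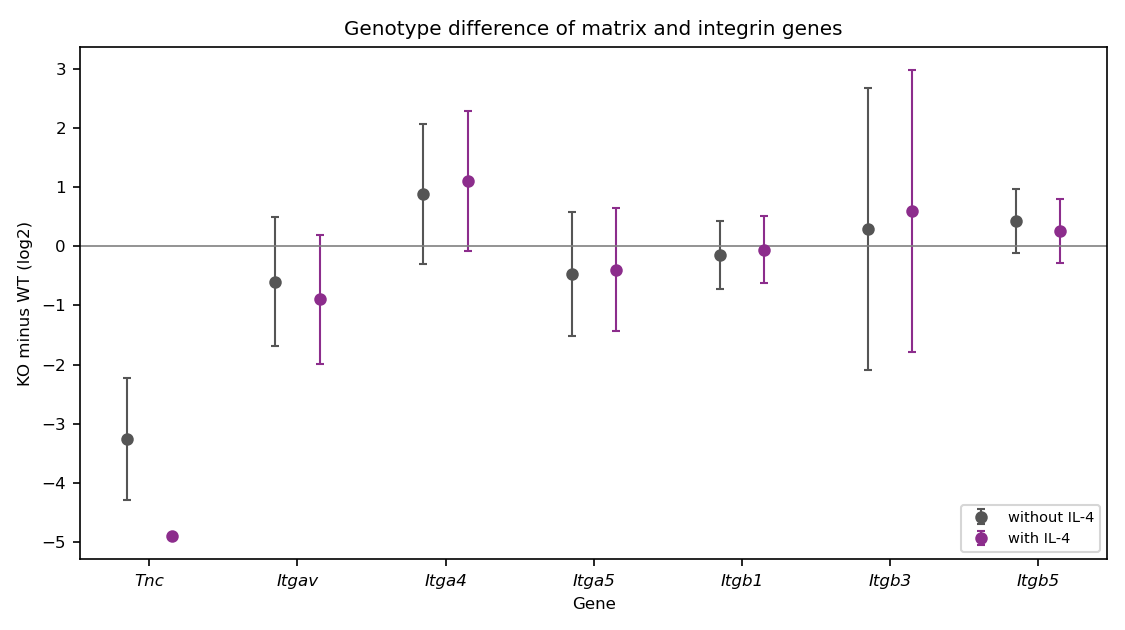
KO minus WT difference in log2 signal (y axis) of the 7 members above background (x axis), without IL-4 in grey and with IL-4 in purple. Points are differences of the means of 2 clones, and bars are 95% intervals from limma, left out for Tnc with IL-4, which was chosen for that value. Tnc lies at −3.26 (1 of 2 KO arrays below background) and −4.90, and the intervals of the 6 integrin genes include 0.

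Tnc was higher with IL-4 in all 4 clones. The signal with IL-4 was 9.97-fold that without in WT1 and 2.12-fold in WT2, compared with at least 1.66-fold in KO1, from below background, and 1.12-fold in KO2. In WT1 this exceeded the difference of 99.9% of probe sets, in WT2 of 99.01% and in KO2 of 69.3%. In WT cells the log2 difference was 2.20 (95% interval 1.17 to 3.23, adjusted p = 0.466), and in KO cells, with the array of KO1 below background included as measured, it was 0.57 (95% interval −0.46 to 1.59, adjusted p = 1). Neither passed, though the WT difference did so without WT2, on WT1 alone (3.32, adjusted p = 0.0216, with a range of 0.0216 to 1 over the alternatives). Over all 4 clones, with each clone as a block, the difference was 1.38 (95% interval 0.43 to 2.34, adjusted p = 0.326). Compared between genotypes, the response to IL-4 differed by −1.63 (KO minus WT) (95% interval −3.09 to −0.18, adjusted p = 1), so a difference in response was not shown. All of these differences of Tnc with IL-4 use the IL-4 arrays for which it was chosen, so they are no independent tests.

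**Figure D3:**
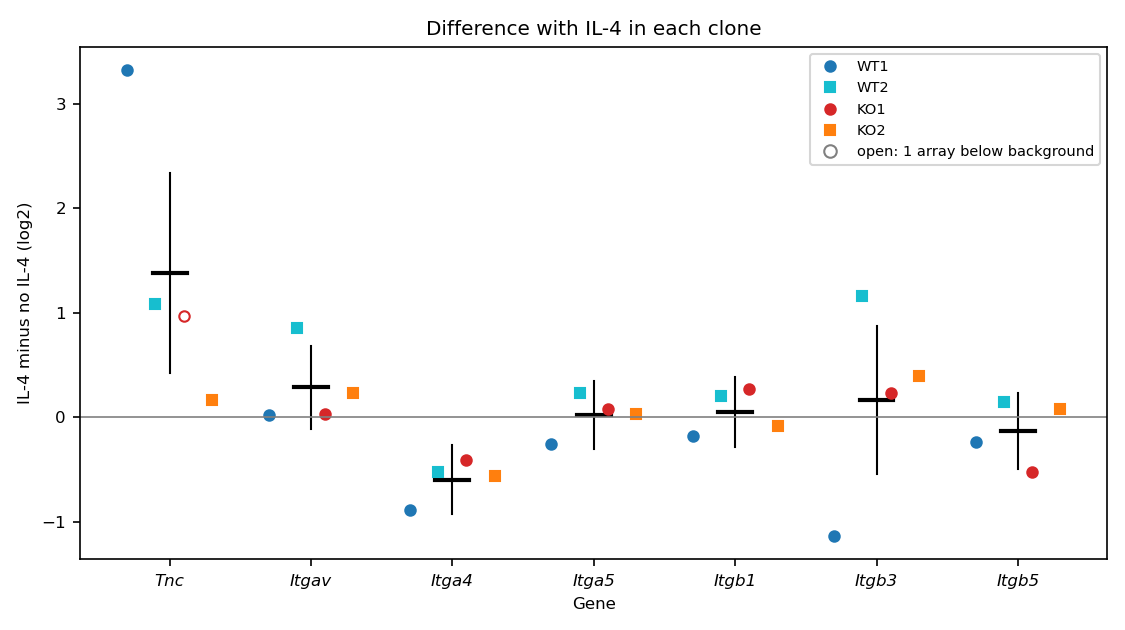
Difference in log2 signal with IL-4 (y axis) in each of the 4 clones (points) for the 7 members above background (x axis), as measured, with an open symbol where 1 of the 2 arrays was below background. Black bars give the estimate over all 4 clones with the clone as a block and its 95% interval from limma. All 4 points lie above 0 for Tnc and Itgav, and below 0 for Itga4.

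The promoters of Tnc and Itga4 are shown because these members had the most extreme KO minus WT differences, in opposite directions. The sequences are from RefSeq (GRCm38.p6), cover 250 bases before to 50 after a transcript start, and run 5′ to 3′ on the strand of the gene. Capitals mark TATAAA, the letters searched for as a TATA box, and the motif GGGCGG, which the factor Sp1 can bind.
Tnc, chr4:64046966-64047265, minus strand: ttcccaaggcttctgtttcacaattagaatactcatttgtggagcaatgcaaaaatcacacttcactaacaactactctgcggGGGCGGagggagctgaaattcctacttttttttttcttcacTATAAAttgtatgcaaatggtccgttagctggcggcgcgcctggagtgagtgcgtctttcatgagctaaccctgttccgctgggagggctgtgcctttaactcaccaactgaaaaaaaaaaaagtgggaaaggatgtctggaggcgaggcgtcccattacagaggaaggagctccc
Itga4, chr2:79255176-79255475, plus strand: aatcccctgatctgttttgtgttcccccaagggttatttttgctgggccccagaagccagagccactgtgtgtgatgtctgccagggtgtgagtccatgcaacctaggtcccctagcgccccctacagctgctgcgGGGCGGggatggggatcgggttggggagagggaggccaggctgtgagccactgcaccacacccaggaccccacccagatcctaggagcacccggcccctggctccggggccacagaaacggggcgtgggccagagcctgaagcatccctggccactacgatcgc
In Tnc the TATAAA begins at −126 and the GGGCGG at −167 relative to the transcript start of the window shown. Relative to the start of the second Tnc window the same letters begin at −205 and −246. The second window also holds the letters tatataag, past the end of the window shown. They do not match TATAAA, so the search did not mark them. In Itga4 the GGGCGG begins at −114. RefSeq promoters were found for 7 of the 10 members, in 9 windows, of which the second for Tnc overlaps the one shown. Both strands were searched for 5 motifs, which did not overlap each other in the windows shown. TATAAA occurs in 13.6% of 32851 promoter windows and GGGCGG in 35.7%. No window of a member held TGANTCA (AP-1, 7.81% of all windows), TTCNNNGAA (STAT, 8.3%) or the STAT6-type form of the latter with 4 free bases in the middle (6.95%). A match is a description of the letters and not of binding.

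A neighbour of Tnc on chromosome 4 was also lower on every KO than on every WT array. Tnfsf15, which encodes a cytokine of the TNF superfamily, was singled out after its values were seen. In the RefSeq order 1 named gene, Tnfsf8, lies between them, and it was below background on all 8 arrays. Tnfsf15 read 12.60 (WT1), 14.49 (WT2), 10.46 (KO1) and 10.89 (KO2) without IL-4. The IL-4 arrays gave 13.81 (WT1), 13.93 (WT2), 10.68 (KO1) and 10.12 (KO2). As for Tnc, the KO arrays lay below all WT arrays, but the KO signal of Tnfsf15 was well above background. KO cells were lower by a log2 difference of −2.87 untreated (limma adjusted p = 0.436) and −3.47 on the IL-4 arrays (adjusted p = 0.171), and neither passed. By rank from the lowest, Tnfsf15 was number 6 without and 3 with IL-4 among all probe sets, and Tnc was number 3 and 1. Over the 8 arrays the 2 genes correlated at r = 0.925, which mostly sets the 4 WT against the 4 KO arrays. With IL-4, Tnfsf15 was higher in WT1 and KO1 and lower in WT2 and KO2, with a difference of 0.02 over all 4 clones (95% interval −0.65 to 0.69, adjusted p = 0.996), whereas Tnc was higher in each clone. Whether the DNA around these neighbouring genes is intact in the KO clones was not tested.

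Among the 15 named genes on each side of Tnc, 9 others than Tnfsf15 were above background on all arrays. Their KO minus WT difference lay between −1.42 (Megf9) and 0.72 (Cdk5rap2) without IL-4, with a median of −0.23. With IL-4 it lay between −0.74 (Zfp618) and 0.16 (Tlr4), with a median of −0.26. Tlr4, the receptor named above, is the nearest named gene above background on the other side.

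**Figure D4:**
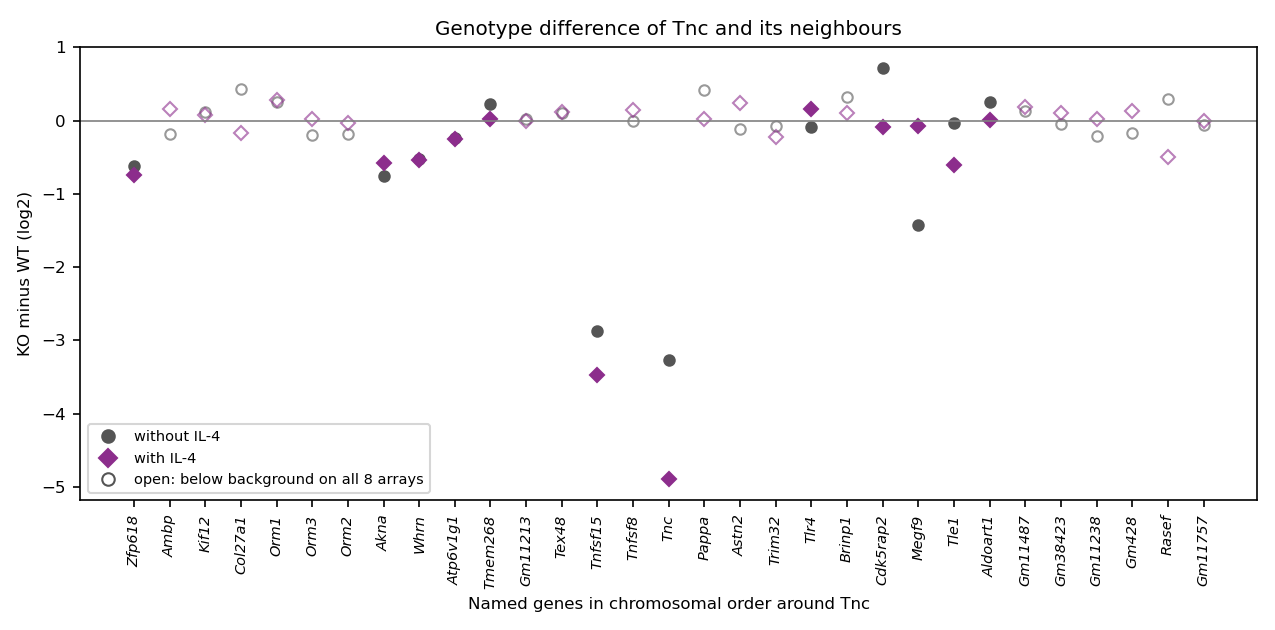
KO minus WT difference in log2 signal (y axis) of Tnc and the 15 named genes on each side in RefSeq order (x axis), without IL-4 (circles) and with IL-4 (diamonds). Open symbols are genes below background on all 8 arrays. Tnfsf15 (−2.87 and −3.47) and Tnc (−3.26 and −4.90) lie far below the other genes.

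The genes whose signal was most like that of Tnc over the 8 arrays were Birc3 (Pearson's r = 0.972), Tiparp (0.970), Cxcl16 (0.960), Mcl1 (0.955) and Cgrrf1 (0.951), among 8497 named genes above background on at least 3 arrays. Birc3 and Mcl1 encode inhibitors of cell death, and Cxcl16 is a chemokine. Birc3 read 11.87 to 12.31 in WT and 11.12 to 11.53 in KO cells, and Tiparp 10.39 to 10.96 and 9.64 to 10.00. Their differences between the genotypes were thus far smaller than that of Tnc. The most opposite genes were Rbm3 (r = −0.969), Agmo (−0.966), Prkch (−0.966), Ap1m1 (−0.965) and Ltc4s, the leukotriene C4 synthase gene (−0.964). Ltc4s read 10.52 to 12.49 in WT and 13.29 to 14.11 in KO cells. The 8 arrays come from 4 clones and share the contrast of WT with KO cells, so these values are a description.

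Fn1 and Thbs1 were below background on all 8 arrays. Fn1 read 3.36 to 4.09 and Thbs1 3.30 to 4.00, against a background of at least 6.64, so no fold change is given for either. Of the 3 matrix members measured, Tnc alone was therefore above background.

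The alpha-4 integrin gene Itga4 was lower with IL-4 in each clone. Without IL-4 it read 15.05 (WT1), 13.47 (WT2), 15.09 (KO1) and 15.19 (KO2). The IL-4 arrays gave 14.15 (WT1), 12.95 (WT2), 14.68 (KO1) and 14.63 (KO2). WT2 was low in both treatments, and the other 3 clones lay close together without IL-4. The difference with IL-4 was −0.89 (WT1), −0.52 (WT2), −0.41 (KO1) and −0.56 (KO2). Over all 4 clones it was −0.60 with an SE of 0.14 (95% interval −0.93 to −0.27, adjusted p = 0.167) and did not pass. With a trend and robust prior variance it passed (adjusted p = 0.00713, with a range of 0.00713 to 1 over the alternatives). Both KO clones were brighter than both WT clones, by 0.88 without IL-4 (95% interval −0.30 to 2.07, adjusted p = 0.993) and by 1.10 with IL-4 (95% interval −0.08 to 2.29, adjusted p = 1). This rested largely on WT2. On the arrays without IL-4 the difference was 0.10 when WT2 was left out, the lowest such value, and 1.67 when WT1 was left out. With IL-4 it lay between 0.50 and 1.71 when 1 clone was left out, and 1.71 is the value without WT1.

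Itgav, the alpha-v chain, stood out in WT2. Without IL-4 it read 11.35 (WT1), 12.13 (WT2), 11.11 (KO1) and 11.17 (KO2). The IL-4 arrays gave 11.36 (WT1), 12.98 (WT2), 11.15 (KO1) and 11.40 (KO2). Only WT2 lay apart, by 1.62 above WT1 with IL-4, and KO2 was above WT1 there, so the genotypes overlapped with IL-4. KO cells differed from WT cells by −0.60 without (95% interval −1.69 to 0.50, adjusted p = 0.993) and −0.90 with IL-4 (95% interval −1.99 to 0.20, adjusted p = 1). When 1 clone was left out, the difference with IL-4 lay between −1.71, which is the value without WT1, and −0.089. All 4 clones were higher with IL-4, by 0.02 (WT1), 0.85 (WT2), 0.03 (KO1) and 0.23 (KO2), and over all clones the difference was 0.28 (95% interval −0.11 to 0.68, adjusted p = 0.805).

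Itga5, the fibronectin receptor chain, was also higher in WT2. It read 9.41 (WT1), 10.33 (WT2), 9.29 (KO1) and 9.52 (KO2) without IL-4. The IL-4 arrays gave 9.15 (WT1), 10.56 (WT2), 9.37 (KO1) and 9.54 (KO2). The KO clones lay between the WT clones with IL-4, and the KO minus WT difference of −0.40 had a 95% interval of −1.44 to 0.65 (adjusted p = 1). The IL-4 difference over all clones was 0.02 (95% interval −0.31 to 0.35, adjusted p = 0.99).

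Itgb3, the beta-3 chain that is abundant in platelets and osteoclasts, varied most between clones. Without IL-4 it read 11.21 (WT1), 12.57 (WT2), 11.66 (KO1) and 12.71 (KO2). The IL-4 arrays gave 10.07 (WT1), 13.73 (WT2), 11.88 (KO1) and 13.11 (KO2). Both second clones were thus brighter than the first clones of their genotype in both treatments, with no order between genotypes. Between the WT clones Itgb3 differed by 3.66 with IL-4, a 12.6-fold difference that 0.122% of probe sets exceeded in size. Between the KO clones it differed by 1.06 without and 1.22 with IL-4, a size exceeded by 1.32% and 0.662% of probe sets. IL-4 went with a difference of −1.13 in WT1 and 1.16 in WT2, in opposite directions, and of 0.23 in KO1 and 0.39 in KO2. The mean IL-4 difference in WT cells was therefore 0.01, with a 95% interval of −2.37 to 2.40 (adjusted p = 1). Of the 10 osteoclast markers, 5 were above background on any array, and the mean over the 10 lay between 7.44 and 7.46 in untreated WT, 7.17 and 7.30 in untreated KO, 7.499 and 7.513 in IL-4-treated WT, and 7.29 and 7.47 in IL-4-treated KO cells. The median KO minus WT difference of the 10 was −0.13 without and −0.04 with IL-4. For Atp6v0d2 alone it was −1.73 without (limma adjusted p = 0.133) and −1.10 with IL-4 (adjusted p = 0.714), and neither passed. The part of the osteoclast markers in the Itgb3 values was not tested.

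**Figure D5:**
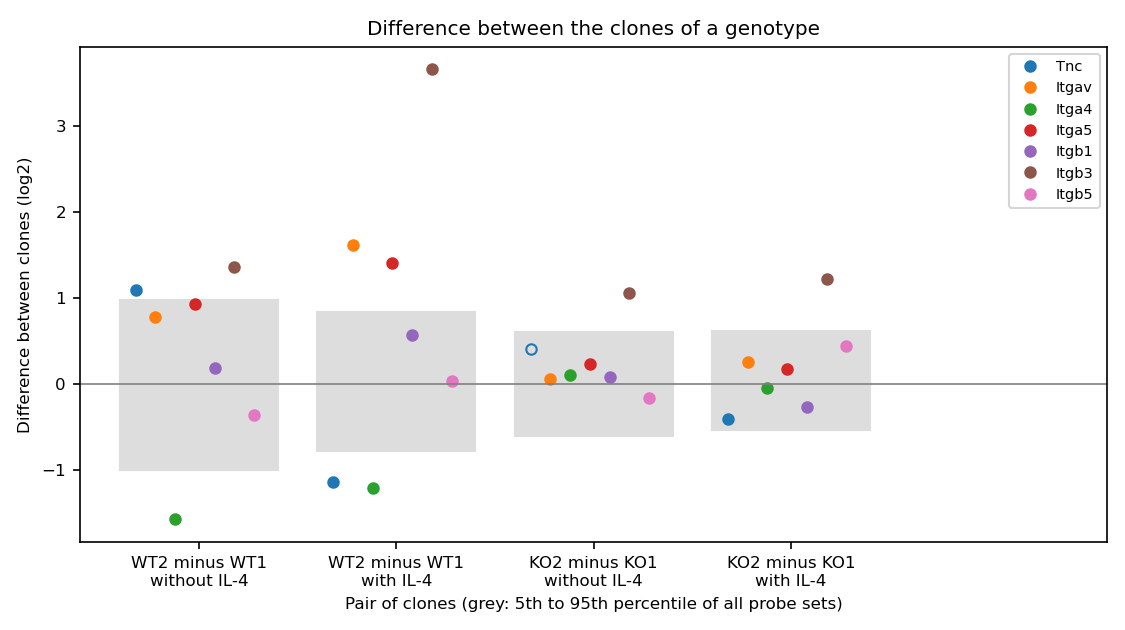
Difference in log2 signal between the 2 clones of a genotype (y axis) without and with IL-4 (x axis) for the 7 members above background (points, open where 1 of the 2 arrays was below background). Grey boxes span the 5th to 95th percentile of all probe sets. Itgb3 lies above the box in all 4 pairs (1.36, 3.66, 1.06 and 1.22), and Itga4 below it in the WT pairs (−1.57 and −1.21).

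Itgb1 and Itgb5 varied least of the integrin genes. Itgb1, the common partner of many alpha chains, read 13.40 to 13.97 over the 8 arrays. KO cells differed from WT cells by −0.15 without IL-4 (95% interval −0.71 to 0.42, adjusted p = 0.993) and −0.06 with IL-4 (95% interval −0.63 to 0.51, adjusted p = 1). Itgb5 read 7.12 to 7.81 and was above background on all of them. Both KO clones were above both WT clones in each treatment, by 0.43 without IL-4 (95% interval −0.11 to 0.98, adjusted p = 0.993) and 0.26 with IL-4 (95% interval −0.28 to 0.80, adjusted p = 1). With IL-4, KO1 (7.28) was close to WT2 (7.26) and WT1 (7.23), while KO2 read 7.72.

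Counted together, 0 of the 9 members passed the threshold for IL-4 in WT cells (0.036% of all probe sets passed), 0 for IL-4 in KO cells (0.0315%) and 0 for the difference of these effects (0%). For KO minus WT, 0 passed without IL-4 (0.018%) and 1 with IL-4 (0.0315%, of which 0.027% higher and 0.0045% lower in KO cells), which is Tnc, whose call was fixed by the choice of the gene and is no result. For IL-4 over all 4 clones 0 of 9 passed, against 0.766% of probe sets. With the clone as a fixed block, 35 and 25 probe sets passed for IL-4 in WT and in KO cells in place of 8 and 7, and 0 members. At an unadjusted p under 0.05 from limma, the members numbered 1, 0, 1, 1, 1 (Tnc, as chosen) and 2 in these 6 comparisons, against 3.85%, 2.77%, 1.52%, 4.41%, 3.53% and 8.23% of all probe sets. Both KO clones lay below both WT clones without IL-4 for 4 of the 9 members (16.3% of all probe sets), of which Fn1 was below background, and above them for 2 (14.1%). With IL-4 it was 2 below (15.3%), of which Thbs1 was below background, and 2 above (17.9%). Tnc was 1 of 9 with all KO arrays below all WT arrays (2.54%), and 0 had them above (2.36%). Higher with IL-4 in all 4 clones were 2 members (7.93%), and lower 2 (8.44%), of which Fn1 was below background. At an unadjusted p under 0.05 Tnc is also counted for IL-4 in WT cells, over all 4 clones and for the difference of effects. It is among the members with KO clones lower with IL-4, all KO arrays lower, and higher with IL-4. These counts use the arrays with IL-4 for which Tnc was chosen, so they are no open outcomes.

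Around these members, 7 lists of matrix and adhesion genes held 178 other genes, of which 169 were measured and 80 were above background on at least 1 array. None of the 169 passed in either genotype alone, in the difference of the IL-4 effects or in KO minus WT. At IL-4 over all 4 clones 6 rose and 2 fell (4.73% of the 169, against 0.766% of all probe sets, 0.486% higher and 0.279% lower). The lists were chosen with earlier results of these data known, so the larger share is no test of enrichment. The median difference over the 169 was 0.02, against −0.01 over all probe sets.

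None of the 27 matricellular genes measured passed, and 5 were above background on any array, among them Emilin2 and Mfge8. Mfge8 read 8.09 to 9.79 in WT and 10.43 to 11.67 in KO cells. Every KO array thus lay above every WT array, an order shared by 2.36% of all probe sets. Mean Mfge8 signal was brighter in KO cells by 2.20 on untreated arrays (limma adjusted p = 0.854). On IL-4 arrays the excess was 2.00 (adjusted p = 0.994), and neither passed. This order was singled out after the values were seen. The 27 collagens, laminins and proteoglycans did not pass either. Of these, 4 were above background on any array, among them Lamc1, a laminin chain, and the granule proteoglycan Srgn. Of 18 other integrin subunits 10 were above background on any array, and the leukocyte chains Itgam and Itgb2 were bright on all of them. Itga8 fell with IL-4 (adjusted p = 0.0237), since it was above background on the 4 arrays without IL-4 and on none with it. The mean over the clones fell at least 1.85-fold. Without IL-4 it was close to background in WT2 (7.05) and KO2 (7.09), so the bound is smaller in these clones.

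Of 26 genes of the integrin adhesion complex, 17 were above background on any array, and 1 passed. Actn1, an alpha-actinin that cross-links actin at adhesions, rose in every clone, from 11.68 to 13.54 in WT1, 12.17 to 13.64 in WT2, 12.52 to 13.78 in KO1 and 12.89 to 13.94 in KO2 (log2 difference 1.41, adjusted p = 0.0069). Both KO clones were above both WT clones in each treatment, an order shared by 14.1% of probe sets on untreated arrays and 17.9% on IL-4 arrays. The KO minus WT difference of Actn1 was 0.78 without IL-4 (limma adjusted p = 0.993) and 0.27 with IL-4, and neither passed. Tln1, the talin that activates integrins, and Flna, a filamin, did not pass for IL-4 over all 4 clones, with differences of −0.04 and −0.07.

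Of 20 other matrix receptors 3 passed. Cd151, a tetraspanin that binds laminin-binding integrins, rose (log2 difference 0.97, adjusted p = 0.0163). The scavenger and thrombospondin receptor Cd36 rose from below background (adjusted p = 0.0069), by at least 161.3-fold in WT1, 4.10-fold in WT2, 2.13-fold in KO1 and 3.12-fold in KO2. The mean over the clones rose at least 8.14-fold, and at least 3.01-fold without WT1. Plaur, the urokinase receptor, fell (log2 difference −1.11, adjusted p = 0.0461). Of 25 matrix proteases and inhibitors, Mmp12, the macrophage elastase, rose (log2 difference 3.61, adjusted p = 0.0417), from 10.69 to 16.12 in WT2 and from 10.07 to 10.93 in WT1. In the KO clones Mmp12 rose from 11.18 to 14.45 in KO1 and from 10.40 to 15.26 in KO2, so that WT1 stood apart with the smallest rise. Of 26 genes of TGF-beta signalling and matrix gene regulation, the transcription factor genes Myc (log2 difference 1.42, adjusted p = 0.00656) and Fos (adjusted p = 0.0289) rose. Fos was above background on 1 of the 4 arrays without IL-4, and its signal with IL-4 was 2.86-fold higher in WT1 and at least 1.63-fold in WT2, 1.51-fold in KO1 and 1.65-fold in KO2.

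Cell type markers also moved with IL-4 over the 4 clones. Of the 15 macrophage markers Adgre1 rose, and Fcgr1, Aif1 and Cx3cr1 fell, and of the 10 osteoclast markers Atp6v0d2 rose and Dcstamp fell (adjusted p = 0.000605 to 0.0294). In this comparison 0.766% of all probe sets passed. The marker lists, too, were chosen with earlier results of these data known. The part of these markers in the values above was not tested. Without the clone block 4 of these 14 called genes of the lists passed, and Actn1 and Cd151 were the matrix and adhesion genes among them. Itga8, Cd36, Plaur, Mmp12, Myc and Fos did not pass without it. Mmp12 did not pass with a trend and robust prior variance either.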

How the data were processed

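RNA of 4 RAW264 clones was hybridized to 8 mouse Clariom S arrays. The authors processed the CEL files with SST-RMA in the Transcriptome Analysis Console 4.0 (the submitters' notes name RMA), and deposited intensities on a linear scale. The log2 was taken here. Of 28846 rows, 6640 controls were left out. The platform annotation names a single gene for 19572 of the remaining 22206 probe sets, and 2634 are unnamed here. No source used here gives the genome build of the probe sets. RefSeq GRCm38.p6 was used for gene order and promoters.

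The main model (limma 3.58.1, R 4.3.3) used all 8 arrays, a mean per group and no block, and every adjusted p is from limma. The IL-4 effect over all 4 clones had the clone as a fixed block. P-values were adjusted over the 22206 probe sets by the Benjamini-Hochberg method, with a threshold of 0.05. The 2 arrays of a clone are paired by the clone identifiers in the sample descriptions of the labels, and deviations from the group means correlated at 0.354 (WT) and 0.161 (KO). In the main model the p-values rest on the spread between the clones of a group, and the 2 arrays of a clone count as independent. For the IL-4 effect over all 4 clones they rest on how the IL-4 difference varied between clones. Arrays give no read depth, and their number limits the precision. A fold change from below background is a lower bound against the background of the dim arrays. The model fits were tested on simulated data with independent noise on each array and no clone effect. That test required only that the median size of added differences be recovered, so it is no check of the p-values.

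The members and lists were chosen with earlier results of these data known. Besides the members, genes were named if they passed the threshold in a list or were among the 2 brightest of it, or were among the 5 most or least correlated with Tnc. The alternatives comprised other blocks, a fold rule, omission of each clone, removal of the 40% dimmest probe sets, a trend and robust prior variance, and quantile normalization.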

Additional observations from a re-analysis of the deposited data

How the results depend on the processing

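Of the 9 members, the 7 above background were refitted under each alternative, and leaving out a clone leaves 1 array in the groups of its genotype, whose spread is then taken from the other genotype. The members past the threshold numbered 0 for the IL-4 effect in WT cells (0 to 1 when 1 clone was left out), 0 for KO minus WT without IL-4 (0 to 2) and 1 with IL-4 (0 to 3). Quantile normalization, leaving out dim probe sets and the clone as a random or fixed replicate block changed no call of a member. The fold rule (2-fold or more, unadjusted p below 0.05) gave 1 member, Tnc, for the IL-4 effect in WT cells (2.20), over all 4 clones (1.38), for the difference of the effects (−1.63) and for KO minus WT without IL-4 (−3.26). All but the last of these differences use the arrays with IL-4 for which Tnc was chosen. The last uses the same clones, and its p rests on a spread that includes those arrays. None of them is thus an independent test. A trend and robust prior gave 1 member, Itga4, for the IL-4 effect over all 4 clones. Without WT2 Tnc passed for IL-4 in WT cells (range 1.08 to 3.32), and without WT1 or WT2 for KO minus WT without IL-4 (−3.81 to −2.72). KO minus WT with IL-4 lay between −5.47 and −4.33 for Tnc, given with no test. Without the replicate block, the IL-4 effect over all 4 clones had 62 probe sets past the threshold in place of 170 (367 with a trend and robust, 52 to 131 without 1 clone). The IL-4 effect in WT cells had 8, against 5 without dim probe sets, 13 and 35 with a random and fixed block, 214 under the fold rule and 0 to 26 without 1 clone. In KO cells it had 7, against 4 after quantile normalization or without dim probe sets, 12 with a trend and robust, 13 and 25 under the random and fixed block, 159 under the fold rule and 0 to 47 without 1 clone. The difference of the effects had 0, and 110 under the fold rule. KO minus WT without IL-4 had 4, against 2 after quantile normalization, 1 without dim probe sets, 172 under the fold rule and 0 to 100 without 1 clone. With IL-4 it had 7, against 3 without dim probe sets, 176 under the fold rule and 0 to 143 without 1 clone. KO minus WT has no estimate under the fixed block.

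The direction of small differences was not stable. After quantile normalization Itgb1 turned for IL-4 in WT cells (−0.043). With single clones omitted, the IL-4 effect in WT cells ranged from −0.26 to 0.23 for Itga5, −0.18 to 0.20 for Itgb1, −1.13 to 1.16 for Itgb3 and −0.24 to 0.14 for Itgb5. In KO cells it ranged from −0.0814 to 0.27 for Itgb1 and −0.52 to 0.0757 for Itgb5. Over all 4 clones it ranged from −0.0495 to 0.11 for Itga5, −0.0218 to 0.13 for Itgb1 and −0.17 to 0.59 for Itgb3. The difference of the effects ranged from −0.72 to 0.12 for Itgav, −0.17 to 0.31 for Itga5, −0.10 to 0.28 for Itgb1, −0.85 to 1.45 for Itgb3 and −0.48 to 0.12 for Itgb5. KO minus WT ranged from −0.39 to 0.98 for Itgb3 without IL-4. With IL-4 it ranged from −1.10 to 0.31 for Itga5, −0.35 to 0.23 for Itgb1 and −1.24 to 2.42 for Itgb3. The cause was not tested. Of the 14 called genes of the lists, 14 passed after quantile normalization and without dim probe sets, 13 with a trend and robust, and 4, 5, 9 and 10 without KO1, KO2, WT1 and WT2.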
